A study of Mus musculus with 6 samples.

Results

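Mouse alveolar macrophages cultured with GM-CSF and DON were compared with the same cells cultured without GM-CSF, as 2 libraries against 2 of the 6 in the series. The 4 libraries were chosen by their treatment labels, and the 2 libraries with GM-CSF alone were used to say which changes the cytokine had made and where cells with both agents differed from either other group. All 6 libraries were labelled wild type, alveolar macrophage and day 2. Between groups these labels differed in treatment only: no GM-CSF, GM-CSF, or GM-CSF together with DON. Both the cytokine and DON differ between the main groups, and no library analysed here had DON without GM-CSF. The labels name a cell line, AM. They leave unsaid if this is a primary culture or an established line, and if replicates came from separate cultures or animals. The p-values therefore measure only the spread between these samples, which may be technical.

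GM-CSF (granulocyte-macrophage colony-stimulating factor) binds a receptor made of the chains Csf2ra and Csf2rb, activates the kinase JAK2 and the transcription factor STAT5, and keeps alveolar macrophages, which live in the air spaces of the lung, in their mature state. Glutamine gives its amide nitrogen to the synthesis of purines, pyrimidines, amino sugars and asparagine, and its carbon to the TCA cycle. DON is not spelled out in the labels and is taken here as the glutamine analogue of that name, which blocks enzymes that use glutamine. Cells short of an amino acid raise the transcription factor ATF4, which turns on genes of amino acid synthesis and uptake, tRNA charging and, when the stress lasts, cell death.

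Each library held between 28321986 and 35196387 counts, and 12340 genes were tested, with a median SE of a log2 fold change of 0.0806 in the main comparison. Levels are given as CPM, a count relative to the scaled total of its library, replicate 1 before replicate 2. Differences are log2 fold changes ± SE with n = 2 libraries a group, and the words rose and fell are kept for genes called by the quasi-likelihood test of edgeR (Benjamini-Hochberg adjusted p under 0.05). Of 11 listed genes that define macrophages 10 were in the table and tested. Their summed level was 44842 to 45731 CPM without GM-CSF, 23892 to 23913 with it and 26745 to 28151 with GM-CSF and DON. Most of each sum was the lysozyme gene Lyz2. With both agents 2 of the 10 rose (20%, beside 27.2% of all genes) and 5 fell (50%, beside 28.4%) against no GM-CSF. The median of the 10 was -0.22. The 11 dendritic cell markers summed to 117 and 117 CPM without GM-CSF, 98.8 and 103 with it and 139 and 137 with both agents, with Kit at 0 in the last. The 7 granulocyte and mast cell markers summed to 111 and 115, 61.3 and 63.5, and 71.6 and 74.1 CPM. The 15 lung epithelium markers summed to 141 and 130, 190 and 203, and 124 and 127 CPM, and the surfactant genes Sftpc and Sftpd were at 0 with both agents. The 10 lymphocyte markers summed to 195 and 195, 200 and 193, and 189 and 181 CPM, nearly all of it Cd2, with Cd3g, Cd79b and Trac among those at 0 with both agents. The 10 stroma and endothelium markers summed to 206 and 177, 95.8 and 106, and 254 and 274 CPM, nearly all of it Vwf, with Col1a1 at 0 with both agents. The markers named here at 0 with both agents had at most 3 counts in any library, so they were near 0 in every group. In bulk libraries, fewer cells of a type and less RNA per cell cannot be told apart. The part of the listed markers in any result below was not tested.

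Against cells without the cytokine, cells with GM-CSF and DON still held high levels of genes that GM-CSF raised. The chemokine gene Ccl17 was at 0.461 and 0.416 CPM without GM-CSF, at 1274 and 1219 CPM with it, and at 810 and 755 CPM with GM-CSF and DON. Its log2 fold change between the main groups was 10.79 ± 0.09 (adjusted p = 1.07e-12). The groups did not overlap, and Ccl17 was lower with both agents than with GM-CSF alone. Car4, a carbonic anhydrase found on mature alveolar macrophages, went from 0.215 and 0.238 CPM to 661 and 652 with GM-CSF and to 325 and 303 with both agents (10.41 ± 0.10, adjusted p = 1.65e-12). Like Ccl17, it stood far above the cytokine-free libraries and below those with GM-CSF alone, from which Car4 differed by -1.06.

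Ear6, an eosinophil-associated ribonuclease gene that alveolar macrophages express, was at 0.246 and 0.178 CPM without GM-CSF, 22 and 24.3 with it and 47.3 and 45 with both agents. It differed by 7.74 ± 0.15 between the main groups (adjusted p = 1.90e-10) and was also called higher than with GM-CSF alone. Nov, which encodes a secreted matrix-associated protein, was at 0.984 and 1.22 CPM, then 33.7 and 37.3, then 61.9 and 64.6 (5.84 ± 0.11, adjusted p = 1.90e-10). Both genes were highest in the libraries with DON, with no overlap between any groups. Ear6 belongs to a family of similar sequences, so reads may be shared with other members.

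Asparagine synthetase (Asns), an enzyme that takes its nitrogen from glutamine, was at 21.1 and 24.3 CPM without GM-CSF, 98.6 and 107 with it and 101 and 97.5 with both agents. It rose by 2.13 ± 0.07 (adjusted p = 8.62e-09), and the libraries with and without DON overlapped at -0.05 on the log2 scale. Irg1, the enzyme that makes itaconate in activated macrophages, was at 24.4 and 25.7 CPM without GM-CSF, 0.851 and 0.806 with it and 0.525 and 0.276 with both agents. It fell by 5.98 on the log2 scale (SE 0.17, adjusted p = 2.68e-09) and was lower with both agents than in either other group. In GRCm38 these protein-coding genes lie on chromosome 8 from 94810453 to 94812036 (Ccl17), chromosome 11 from 84957786 to 84966044 (Car4), chromosome 14 from 51853699 to 51854643 (Ear6), chromosome 15 from 54745702 to 54754039 (Nov, now Ccn3), chromosome 6 from 7675169 to 7693254 (Asns) and chromosome 14 from 103046977 to 103056573 (Irg1, now Acod1). Counts were summed over each gene.

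**Figure D1:**
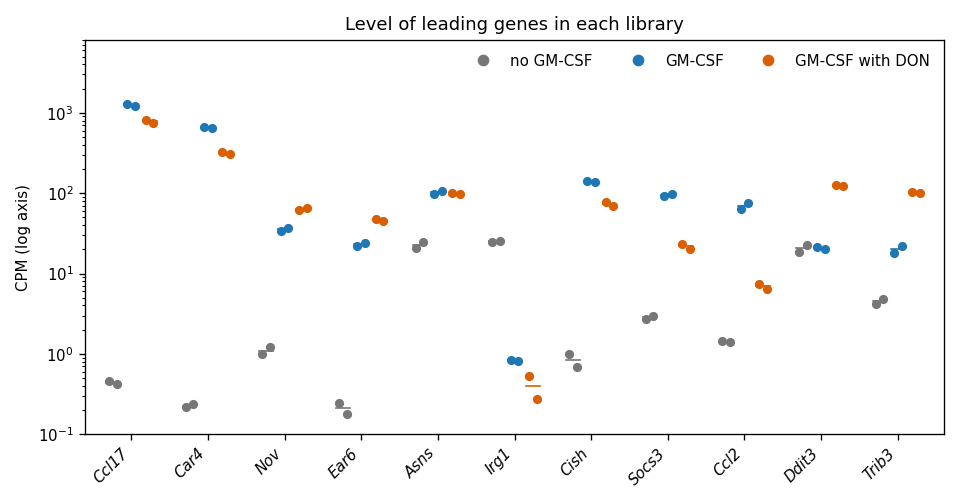
Level of 11 genes in each of the 6 libraries, in CPM on a log axis; points are libraries, short lines the mean of the 2 libraries of a group. Ccl17 and Car4 with both agents lie near the GM-CSF libraries, Ear6 and Nov lie above them, Asns is level with them, and Ddit3 and Trib3 are at least 100 CPM in both DON libraries.

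Promoter sequences of 4 of these genes or of genes described below are shown because they hold letters that fit a STAT or an ATF4 site, the factors downstream of the cytokine and of amino acid shortage. The 250 bases before each start in RefSeq (GRCm38.p6) were searched on both strands for the STAT motif TTCNNNGAA, which reads the same on both strands, and for the ATF4 composite motif TGATGNAA, which reads TTNCATCA on the other strand. The STAT motif was present in 7.02% and the ATF4 motif in 3.45% of all 32851 promoter windows of that length. The windows below are written 5′ to 3′ on the gene's strand with the motif in capitals. They lie at chr8:94810294-94810422 for Ccl17 (plus strand, motif 99 bases before the start), chr11:117969452-117969580 for the feedback inhibitor gene Socs3 (minus strand, 154 bases), chr2:119350992-119351116 for the stress gene Chac1 (plus strand, 193 bases) and chr6:7693214-7693243 for Asns (minus strand, 23 bases, shown short because an annotated exon covers it).
Ccl17: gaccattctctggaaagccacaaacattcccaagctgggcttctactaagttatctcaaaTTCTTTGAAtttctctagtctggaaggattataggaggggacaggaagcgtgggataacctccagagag
Socs3: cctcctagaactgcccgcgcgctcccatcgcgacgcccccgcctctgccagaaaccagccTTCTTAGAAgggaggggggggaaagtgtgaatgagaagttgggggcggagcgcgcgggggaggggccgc
Chac1: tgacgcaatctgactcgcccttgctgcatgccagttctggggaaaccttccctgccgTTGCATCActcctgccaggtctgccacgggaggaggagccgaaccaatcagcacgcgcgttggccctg
Asns: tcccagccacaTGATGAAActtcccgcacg
A match describes the letters and is not a measured binding site. The sequences shown are examples, as other named genes held matches too. The STAT motif was also found for Cxcl14 and Icam1, which fell, and for Dab2 and Chi3l3, which rose. The ATF4 motif was also found for Aqp9, Ear11, Aars and Herpud1. No match was found in the windows of Car4, Ear6, Irg1, Cish, Trib3 or Ddit3, which says only that these letters are not in those windows. Windows were matched for 9511 of the 12340 genes tested, under 80%, so a comparison of shares between gene groups is void.

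Of 12340 genes, 6859 changed between GM-CSF with DON and no GM-CSF, 3353 upward (27.2%) and 3506 downward (28.4%). These shares are the background for the list counts below with both agents against no GM-CSF. For GM-CSF alone against no GM-CSF the background is 27.5% upward and 29.3% downward. For both agents against GM-CSF alone it is 28.8% upward and 28.8% downward. Changes of at least 2-fold numbered 631 upward (5.11%) and 796 downward (6.45%). With unscaled library totals the share of changed genes that were higher was 61.6% in place of 48.9%, and the median over all genes was 0.106 in place of 0.00887.

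After the genes above, the largest rises among well expressed genes included several that were also higher than with GM-CSF alone. Spag11b, a defensin-like gene whose reads may be shared with its near copy, was at 4.43 and 4.37 CPM without GM-CSF, 27.2 and 27.8 with it and 112 and 115 with both agents (4.69 ± 0.07). Slc39a2, a zinc transporter, was at 39.9 and 39.2, then 315 and 335, then 732 and 698 CPM (4.18 ± 0.05). Trib3, a pseudokinase induced by ATF4, was at 4.21 and 4.84, then 18.2 and 22.1, then 104 and 100 CPM (4.49 ± 0.10). In each of these the 3 groups formed 3 separate steps. Amigo2 (4.24 ± 0.12) and the glycerol and water channel Aqp9 (3.94 ± 0.10) also rose, and both were higher than with GM-CSF alone.

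The largest falls were mostly falls that GM-CSF alone made too. The adaptor gene Fyb was at 23.2 and 24.6 CPM without GM-CSF, 0.235 and 0.168 with it and 0.385 and 0.0921 with both agents, a log2 fold change of -6.68 ± 0.24. Treml4, a receptor of the myeloid surface, was at 48.7 and 49.3, then 2.08 and 1.54, then 1.33 and 0.891 CPM (-5.48 ± 0.14). In both the cytokine-free libraries stood alone at the top. Sema4d (-4.0 ± 0.06), Vsig8 (-4.24 ± 0.08), the membrane protease Mmp14 (-5.19 ± 0.14), the kinase gene Ikbke (-3.92 ± 0.10) and the lipid enzyme Lpcat2 (-3.85 ± 0.11) followed. The adjusted p values of the 12 largest rises and 12 largest falls lay between 1.07e-12 and 1.30e-08.

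The cytokine programme was taken as the 623 genes that rose (5.05% of genes tested) and the 823 that fell (6.67%) at least 2-fold with GM-CSF alone. The comparisons share the no GM-CSF libraries, so a gene that happened to be low there counts toward both, and the shares below are descriptions. Of the 623 risers, 319 (51.2%) were still called and at least 2-fold higher with both agents than without GM-CSF. Among these, 154 were not called against GM-CSF alone, 105 were lower than with GM-CSF alone and 60 were higher. A further 92 risers (14.8%) were called below 2-fold, 165 (26.5%) were not called, and 47 (7.54%) were called below the cytokine-free level. Of the 823 fallers, 436 (53%) still stood, 247 of them not called against GM-CSF alone, 80 nearer the cytokine-free level and 109 lower still. Another 174 (21.1%) were called below 2-fold, 180 (21.9%) were not called and 33 (4.01%) passed above the cytokine-free level. The shares that stood, 51.2% of risers and 53% of fallers, are the background for the list counts of standing genes below. For fallers that stood lower than with GM-CSF alone the background is 13.2% of all fallers, and for risers that stood higher it is 9.63% of all risers.

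**Figure D2:**
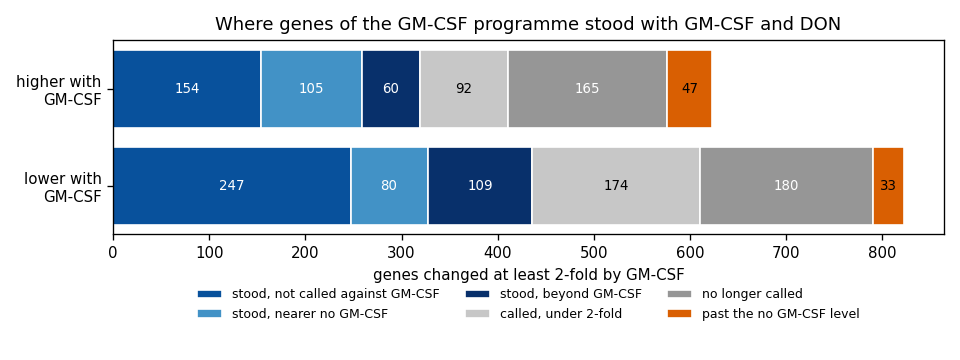
Number of genes that GM-CSF alone raised (623) or lowered (823) at least 2-fold, split by their level with GM-CSF and DON against no GM-CSF. The 3 blue segments hold the genes that still stood at least 2-fold from the cytokine-free level, 319 of the risers and 436 of the fallers.

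Among risers that stood and were not called against GM-CSF alone were the B cell and macrophage receptor gene Tnfrsf13b and Dab2, an endocytic adaptor. Dab2 was at 152 and 145 CPM without GM-CSF, 907 and 901 with it and 935 and 929 with both agents, a rise of 2.65 ± 0.04 from the cytokine-free level and a difference of 0.04 from GM-CSF alone. Tnfrsf13b was at 3.63 and 3.54, then 35.1 and 34.5, then 32.7 and 30.8 CPM (3.15 ± 0.08). Slc7a5, the transporter that takes up leucine in exchange for glutamine, was at 28.3 and 34.3, then 150 and 152, then 146 and 138 CPM (2.18 ± 0.08). In all 3 both treated groups lay far above the cytokine-free libraries. The sulphate-activating enzyme gene Papss2 (3.01 ± 0.11) and the talin gene Tln2 (2.68 ± 0.18) were of the same class. The genes named in this paragraph were taken from risers that stood with no call against GM-CSF alone. Their height in both treated groups follows from that choice. In Tnfrsf13b, Papss2 and Tln2 both DON libraries lay below both GM-CSF libraries, without a call.

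Among the 105 risers that stood below their level with GM-CSF alone, the size of the loss varied. Ccl2, a monocyte chemokine, was at 1.45 and 1.4 CPM without GM-CSF, 62.9 and 76.2 with it and 7.38 and 6.45 with both agents. It was 2.28 ± 0.18 above the cytokine-free level and -3.33 from GM-CSF alone. Inhba, the activin A subunit, was at 1.32 and 1.13, then 42.6 and 57.3, then 13.7 and 14.6 CPM (3.53 ± 0.21). Ear11, a relative of Ear6, had no counts without GM-CSF, 23.5 and 18.8 CPM with it and 11.9 and 11.3 CPM with both agents. Against a floor of 3 counts per library, it was at least 128-fold higher with both agents than without GM-CSF. Where Ear6 was highest with DON, Ear11 was highest with GM-CSF alone.

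The receptor and STAT5 list of 28 genes held both kinds. With both agents 9 of its members rose (32.1%, beside 27.2% of all genes) and 13 fell (46.4%, beside 28.4%) against no GM-CSF. The median was -0.01, and 0.087 with unscaled totals. With GM-CSF alone 13 rose (27.5% of all genes did) and 7 fell (29.3% of all genes), with a median of 0.19. Of its 9 risers, 6 stood. Cish, the first feedback inhibitor of this pathway, was at 0.984 and 0.683 CPM without GM-CSF, 140 and 137 with it and 77.2 and 68.8 with both agents (6.45 ± 0.12). Socs3, another feedback inhibitor, was at 2.71 and 3, then 91.7 and 97.9, then 23.1 and 20.4 CPM (2.93 ± 0.10). Both genes lay between the other groups, with no overlap.

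Socs2 (3.24 ± 0.08) and the survival kinase Pim1 (1.95 ± 0.06) also stood, each slightly lower than with GM-CSF alone. Named after their values were seen, Irf4, a transcription factor of alternative activation, was at 9.07 and 10.1, then 72.8 and 81.0, then 15.0 and 16.8 CPM (0.74 ± 0.10), and Id1, an inhibitor of differentiation factors, was at 21.8 and 20.6, then 51.3 and 41.6, then 10.1 and 9.46 CPM (-1.11 ± 0.11). Irf4 had lost most of its rise, and Id1 was below both other groups. The D-type cyclin gene Ccnd1 was at 27.4 and 28.2, then 7.42 and 8.06, then 1.96 and 2.43 CPM, lowest with both agents (-3.65 ± 0.11). The receptor chains did not pass the test: Csf2ra was at 590 and 578 CPM without GM-CSF and 630 and 610 with both agents (0.09 ± 0.04, adjusted p = 0.0772), and Csf2rb at 1146 and 1134 and at 1148 and 1178 (0.03 ± 0.04, adjusted p = 0.559). With unscaled totals Csf2ra (0.18, adjusted p = 0.00144) and Csf2rb (0.13, adjusted p = 0.0208) passed it, as did Pparg below (0.16, adjusted p = 0.0256).

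Genes of alveolar macrophage identity changed in both directions. Of 37 tested, 20 rose (54.1%, beside 27.2% of all genes) and 13 fell (35.1%, beside 28.4%) with both agents, with a median of 0.35, where 16 rose and 16 fell with GM-CSF alone (median -0.05). Of 4 fallers 1 stood. Of 9 risers 8 stood, and 3 of these were higher than with GM-CSF alone: Ear6, Slc39a2 and Chi3l3, a chitinase-like secreted protein gene with near copies, at 1809 and 1819, then 5536 and 5551, then 7761 and 7643 CPM (2.09 ± 0.03). The 2 main groups of Chi3l3 did not overlap, nor did the treated groups. Pparg, the master regulator that GM-CSF induces in the developing lung, was at 128 and 139 CPM without GM-CSF, 106 and 105 with it and 141 and 139 with both agents (0.06 ± 0.05, adjusted p = 0.314). Siglec5 (Siglec-F) was at 511 and 476, then 388 and 400, then 467 and 481 CPM (-0.06 ± 0.05, adjusted p = 0.303), and Bhlhe41, a repressor of division in these cells, at 579 and 580, then 385 and 383, then 591 and 558 CPM (-0.01 ± 0.04, adjusted p = 0.818). In these 3 genes the libraries with GM-CSF alone stood lowest.

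Its partner Bhlhe40 rose, from 703 and 720 CPM through 924 and 987 to 1104 and 1117 (0.64 ± 0.04), as did Cebpb, a transcription factor of macrophage maturation, from 412 and 388 through 520 and 529 to 622 and 678 CPM (0.70 ± 0.05). Both rose in 2 steps without overlap. The scavenger receptor Marco fell, from 96.8 and 110 CPM to 38.8 and 34.7 (-1.50 ± 0.10), and was at 92.6 and 74.8 with GM-CSF alone. Of the genes that define macrophages, Csf1r, the receptor for M-CSF, fell from 845 and 751 through 382 and 342 to 238 and 246 CPM (-1.72 ± 0.07), and lysozyme Lyz2 from 36620 and 36570 to 19670 and 18157 (-0.95 ± 0.04).

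Markers of interstitial and monocyte-derived macrophages were mostly low in both treated groups. Of 25 tested, 17 fell and 5 rose with both agents (median -1.20), and of the 16 that GM-CSF lowered at least 2-fold 14 stood. Trem2, a lipid-sensing receptor, was at 577 and 560 CPM without GM-CSF, 81.4 and 84.7 with it and 154 and 155 with both agents (-1.88 ± 0.04). Emr1 (F4/80) was at 299 and 279, then 54.1 and 54.7, then 93.7 and 94.0 CPM (-1.62 ± 0.05). In these 2 genes the libraries with both agents lay between the others, nearer those with GM-CSF. Named after its values were seen, the fractalkine receptor Cx3cr1 was at 1.23 and 1.99 CPM without GM-CSF, 0.0587 and 0.0336 with it and had no counts with both agents, at least 16.3-fold lower against the floor. The apoptotic cell clearance list followed, with 11 of 19 lower and 3 higher (median -0.78), and all 6 of its fallers stood, among them Itgb5 (-1.89 ± 0.06) and the bridging protein gene Mfge8 (-1.05 ± 0.05). Tyro3, a receptor kinase of the same function, rose from 0.123 and 0.0594 CPM through 10.2 and 12.1 to 10.8 and 11.9 (6.91 ± 0.25).

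Of 10 chemokine genes that GM-CSF raised at least 2-fold, 7 stood, 6 of them lower than with GM-CSF alone, 1 was called under 2-fold and 2 were not called. Of 17 tested, 8 rose and 6 fell against no GM-CSF, with a median of 1.19, against 2.96 with GM-CSF alone. Against GM-CSF alone 12 were lower (28.8% of all genes were) and 1 was higher (28.8% of all genes), with a median of -1.30. Ccl6 was at 1230 and 1335 CPM without GM-CSF, 16287 and 17168 with it and 14716 and 13960 with both agents (3.48 ± 0.05). Ccl3 was at 51.7 and 56.0, then 695 and 669, then 280 and 274 CPM (2.36 ± 0.05). Named after its values were seen, Ccl4, its close relative, was at 2.37 and 2.35, then 46.0 and 52.3, then 5.63 and 6.76 CPM (1.4 ± 0.14). So of these 3 Ccl6 stood nearly whole and Ccl4 kept the least, with no overlap between groups.

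Of the 5 chemokine genes that GM-CSF lowered at least 2-fold, all 5 stood, 2 of them lower than with GM-CSF alone, 2 not called against it and 1 nearer the cytokine-free level. The 2 lower still were Cxcl14 and Ccl22. Cxcl14 was at 39.2 and 32.5 CPM without GM-CSF, 5.99 and 6.45 with it and 1.57 and 1.90 with both agents (-4.35 ± 0.14). Ccl22, which acts on the same receptor as Ccl17, was at 21.2 and 23.5, then 9.27 and 9.57, then 1.78 and 2.03 CPM (-3.54 ± 0.12). While Ccl17 stood, Ccl22 was below both other groups. In the NF-kB inflammatory list, 17 of 25 fell and 2 rose (median -0.84), and of 9 fallers 7 stood, all 7 lower than with GM-CSF alone. Tnf was at 68.0 and 76.4 CPM without GM-CSF, 30.1 and 29.0 with it and 7.03 and 6.08 with both agents (-3.47 ± 0.09), and the adhesion molecule gene Icam1 at 161 and 163, then 79.4 and 70.7, then 42.7 and 40.1 CPM (-1.97 ± 0.06). Both fell in 2 steps. The 2 that rose were named after their values were seen. Nfkbib, an inhibitor of NF-kB, was at 48.1 and 44.7, then 41.4 and 40.0, then 55.7 and 56.0 CPM (0.27 ± 0.06). Nos2, which makes nitric oxide, was at 0 and 0.0297 CPM without GM-CSF, 0.0293 and 0 with it and 2.06 and 2.37 with both agents.

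Interferon response genes were called at shares near those of all genes. With both agents 6 of 23 rose (26.1%, beside 27.2% of all genes) and 8 fell (34.8%, beside 28.4%), with a median of -0.10. With GM-CSF alone 4 rose and 11 fell (median -0.83). The count of 8 lower was 4 in the DESeq2 Wald test, 4 without GM-CSF with DON replicate 1 and 5 without no GM-CSF replicate 1. Gbp2, an interferon-induced GTPase, was at 35.8 and 39.6 CPM without GM-CSF, 20.4 and 19.1 with it and 83.9 and 85.2 with both agents (1.16 ± 0.06). In the MHC class II presentation list of 15 genes, 6 rose (40%, beside 27.2%) and 5 fell (33.3%, beside 28.4%) with both agents. The 5 were 3 with unscaled totals and 3 without GM-CSF with DON replicate 2. H2-DMa, which loads peptides, was at 60.8 and 62.8, then 207 and 196, then 119 and 112 CPM (0.90 ± 0.05), and the invariant chain Cd74 at 699 and 716, then 602 and 589, then 1055 and 1013 CPM (0.55 ± 0.04). H2-DMa lay between the other groups and Cd74 above both.

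**Figure D3:**
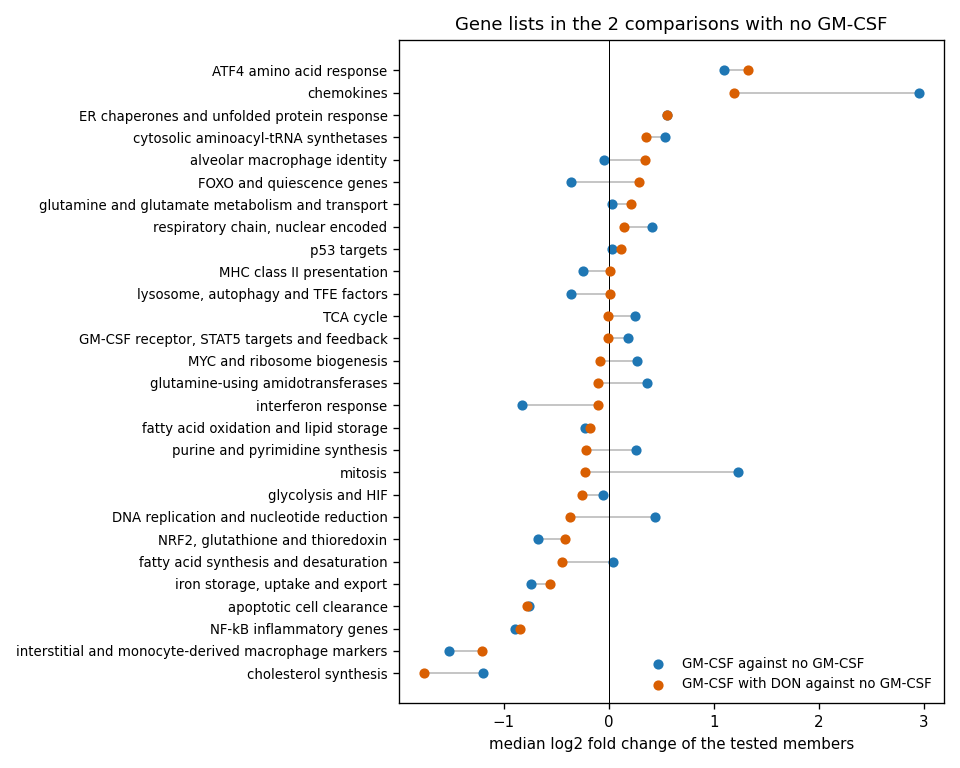
Median log2 fold change of the tested members of 28 gene lists, for GM-CSF against no GM-CSF and for both agents against the same cells, which share the no GM-CSF libraries. The ATF4 and unfolded protein response lists lie to the right in both, the cholesterol and interstitial marker lists to the left in both, and the mitosis list is at 1.23 in the first and -0.22 in the second.

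The proliferative part of the programme did not stand. Of 46 mitosis genes, 46 rose with GM-CSF alone (median 1.23), while with both agents 23 were lower than without the cytokine, 5 were higher and 18 were not called (median -0.22). The count of 5 higher was 8 with unscaled totals, 10 without GM-CSF with DON replicate 1 and 1 without GM-CSF with DON replicate 2. Of 38 risers in the list 0 stood: 4 were called below 2-fold, 15 were not called and 19 were called below the cytokine-free level. Cdc20, which activates the anaphase ubiquitin ligase, was at 13.7 and 14.6 CPM without GM-CSF, 46.0 and 40.1 with it and 7.34 and 6.57 with both agents (-1.03 ± 0.10). Aurka, a spindle kinase, was at 18.5 and 18.8, then 46.6 and 42.6, then 8.08 and 9.40 CPM (-1.09 ± 0.09). Both were below both other groups.

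Cyclin B1 (Ccnb1) was at 36.3 and 38.4 CPM without GM-CSF, 114 and 115 with it and 26.8 and 29.9 with both agents (-0.39 ± 0.06). The proliferation marker Mki67 was at 174 and 118, then 329 and 303, then 101 and 144 CPM, and the main groups overlapped (-0.25 ± 0.18, adjusted p = 0.267). Without no GM-CSF replicate 2 Mki67 passed the test (-0.50, adjusted p = 0.0056), and without GM-CSF with DON replicate 1 Cenpa did (0.31, adjusted p = 0.0301). Cenpa, a centromere protein gene, was at 25.4 and 27.3, then 85.4 and 75.4, then 26.2 and 32.7 CPM, also overlapping (0.16 ± 0.10, adjusted p = 0.215). Of 45 genes of DNA replication and nucleotide reduction, 26 fell and 5 rose (median -0.37), the 5 being 3 in the DESeq2 Wald test, 3 without no GM-CSF replicate 1 and 3 without GM-CSF with DON replicate 2. Pcna, the replication clamp, was at 399 and 406, then 400 and 383, then 240 and 238 CPM (-0.75 ± 0.04), lowest with both agents.

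Outside the mitosis list, other risers lost their call too. Phlda1 was at 5.90 and 7.07 CPM without GM-CSF, 23.5 and 21.9 with it and 7.90 and 6.73 with both agents (0.17 ± 0.12, adjusted p = 0.279). Dcstamp, needed for macrophage fusion, was at 15.6 and 13.1, then 39.5 and 48.2, then 15.7 and 15.3 CPM (0.11 ± 0.12, adjusted p = 0.463). The protease gene Adam8 was at 20.3 and 21.1, then 80.6 and 105, then 13.7 and 16.8 CPM. It was called below the cytokine-free level (-0.43 ± 0.14, adjusted p = 0.0236). Adam8 lost that call in the DESeq2 Wald test (-0.44, adjusted p = 0.0618) and with unscaled totals (-0.34, adjusted p = 0.0641). Without GM-CSF with DON replicate 1 its log2 fold change was -0.30. Among fallers, Ypel3 was at 30.1 and 30.1, then 8.51 and 9.30, then 35.2 and 31.9 CPM (0.16 ± 0.07, adjusted p = 0.0826). It passed the test with unscaled totals (0.25, adjusted p = 0.00988). Without GM-CSF with DON replicate 2 its log2 fold change was 0.23. Mctp1 was at 82.5 and 81.0, then 30.7 and 35.4, then 79.2 and 79.8 CPM (-0.04 ± 0.06, adjusted p = 0.612). Phlda1, Dcstamp, Ypel3 and Mctp1 were taken from genes not called against no GM-CSF, so their nearness to the cytokine-free level follows from that choice. Fallers that passed above that level included the chemokine receptor Cxcr1, at 73.0 and 75.8, then 27.3 and 27.7, then 165 and 161 CPM (1.13 ± 0.05), and the mitophagy kinase Pink1 (0.37 ± 0.07).

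The ATF4 amino acid response had the highest median of the 28 lists in the plot of list medians. Of 37 genes tested, 34 rose and 0 fell with both agents (median 1.33), where 30 rose and 1 fell with GM-CSF alone (median 1.10), and of 20 risers 16 stood. The 3 genes not called were Pycr1, Aldh1l2 and Slc7a3, named after their values were seen. Asns and Slc7a5 were not called against GM-CSF alone. Slightly lower than with GM-CSF alone, Phgdh, the first enzyme of serine synthesis, was at 41.3 and 43.5 CPM without GM-CSF, 249 and 242 with it and 212 and 202 with both agents (2.29 ± 0.05). Others rose in 2 steps: the transcription factor Atf5 was at 27.7 and 27.4, then 79.1 and 77, then 163 and 144 CPM (2.48 ± 0.07), and Mthfd2, a mitochondrial folate enzyme, at 44.6 and 54.9, then 104 and 109, then 199 and 199 CPM (2.00 ± 0.08).

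A further 8 members were at least 2-fold above both other groups, among them the death-promoting factor Ddit3 (CHOP). Ddit3 was at 18.5 and 22.6 CPM without GM-CSF, 21.2 and 20 with it and 125 and 124 with both agents (2.6 ± 0.08), so that the first 2 groups overlapped and the libraries with DON stood alone. Slc3a2, the heavy chain partner of Slc7a5, was at 220 and 221, then 232 and 228, then 607 and 570 CPM (1.42 ± 0.04). Chac1, which degrades glutathione, was at 1.54 and 2.26, then 4.05 and 4.13, then 24.9 and 24.1 CPM (3.68 ± 0.14). Named after its values were seen, Atf4 itself was at 198 and 217, then 303 and 320, then 588 and 537 CPM (1.44 ± 0.06).

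**Figure D4:**
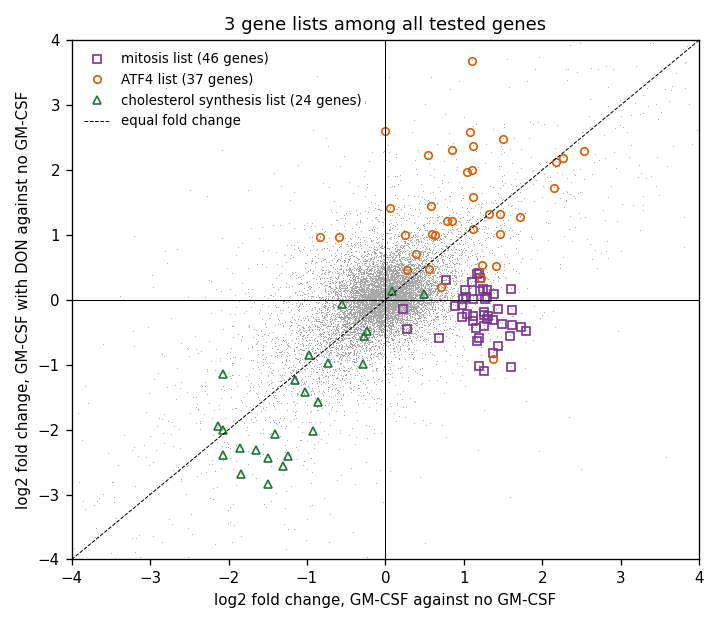
Log2 fold change of each tested gene with GM-CSF alone (x axis) and with GM-CSF and DON (y axis), both against the same no GM-CSF libraries, with 3 gene lists marked and the dashed line showing equal values; genes beyond 4 on either axis are not drawn. Mitosis genes lie right of the vertical line and near 0 or below it on the y axis, while cholesterol genes lie mainly below the dashed line and ATF4 genes at or above 0 on the y axis apart from Pycr1, which was not called.

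Genes of tRNA charging and of protein folding in the endoplasmic reticulum were mostly higher than without GM-CSF. Of 20 cytosolic aminoacyl-tRNA synthetases 15 rose and 2 fell with both agents (median 0.35), where 17 rose with GM-CSF alone (median 0.53). Against GM-CSF alone 7 were higher and 10 lower, and the list held 1 riser, which stood. The 2 lower than without GM-CSF were 1 with unscaled totals and 1 without no GM-CSF replicate 2. The alanine enzyme Aars was at 132 and 136 CPM without GM-CSF, 231 and 236 with it and 322 and 333 with both agents (1.29 ± 0.04). Of 30 chaperone and unfolded protein response genes 26 rose and 0 fell (median 0.56, and 0.55 with GM-CSF alone), and of 4 risers 3 stood. Pdia4, a disulphide isomerase, was at 71.3 and 74.0, then 317 and 331, then 307 and 289 CPM (2.04 ± 0.05), and Herpud1, of the degradation pathway, at 65.6 and 71.8, then 98.0 and 102, then 206 and 189 CPM (1.52 ± 0.06). Pdia4 kept the level set by GM-CSF with a small loss, and Herpud1 rose in 2 steps.

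Enzymes that use glutamine nitrogen were called in both directions, and 5 of the 11 amidotransferases were not called. With both agents 2 rose (18.2%, beside 27.2% of all genes) and 4 fell (36.4%, beside 28.4%). The median was -0.10, and near 0 with unscaled totals. With GM-CSF alone 8 rose (median 0.37). The count of 4 lower was 2 with unscaled totals, 2 in the DESeq2 Wald test and 2 without no GM-CSF replicate 1, and 1 rose without no GM-CSF replicate 2. The risers were Asns and Gfpt2, the latter at 0.154 and 0.0297 CPM without GM-CSF and 0.594 and 0.522 with both agents, a call lost without no GM-CSF replicate 2 (1.83, adjusted p = 0.0568). Pfas, of purine synthesis, was at 16.2 and 14.5, then 20.5 and 20.1, then 10.5 and 10.3 CPM (-0.57 ± 0.08). Named after their values were seen, Cad, of pyrimidine synthesis, and Gfpt1 did not pass the test: Cad was at 43.0 and 34.9, then 59.1 and 58.3, then 35.2 and 36.6 CPM (-0.12 ± 0.09, adjusted p = 0.282), and its main groups overlapped. Gfpt1, the entry enzyme of amino sugar synthesis, lay at 56.9 and 52.8, then 65.6 and 78.8, then 60.6 and 63.6 CPM (0.18 ± 0.08, adjusted p = 0.0935).

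Glutamine synthetase (Glul), which makes glutamine, was at 300 and 302 CPM without GM-CSF, 113 and 115 with it and 100 and 108 with both agents, a fall of 1.53 on the log2 scale (SE 0.05). Both treated groups were low. Of 20 genes of glutamine and glutamate metabolism and transport 10 rose (50%, beside 27.2% of all genes) and 6 fell (30%, beside 28.4%). The list median was 0.22, and the transporters Slc38a2 (1.21 ± 0.05) and Slc38a7 (0.94 ± 0.06) rose. In the nucleotide synthesis list (purines and pyrimidines, 32 genes) 6 rose and 18 fell with both agents (median -0.21), where 19 rose and 5 fell with GM-CSF alone (median 0.26). Myc was at 62.8 and 68.2, then 74.5 and 69.5, then 49.3 and 47.4 CPM (-0.44 ± 0.06), lower than in either other group. In its list with ribosome biogenesis, 34 genes, 8 rose (23.5%, beside 27.2% of all genes) and 13 fell (38.2%, beside 28.4%). That list had a median of -0.09, which was 0.011 with unscaled totals. Mxi1, a MYC antagonist, rose (0.75 ± 0.05).

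Respiratory chain genes kept part of their rise, and TCA cycle genes as a list did not. Of 49 nuclear-encoded respiratory chain genes 25 rose and 2 fell with both agents (median 0.15), where 41 rose with GM-CSF alone (median 0.41). The 2 lower were 1 with unscaled totals, with the replicate block, and without each of 3 single libraries, namely no GM-CSF replicates 1 and 2 and GM-CSF with DON replicate 2. The ATP synthase subunit Atp5b was at 693 and 710 CPM without GM-CSF, 1222 and 1195 with it and 933 and 906 with both agents (0.39 ± 0.04). Of 24 TCA cycle genes 6 rose and 8 fell (median -0.002, and 0.0954 with unscaled totals, when 10 rose), shares of 25% and 33.3% beside 27.2% and 28.4% of all genes, where 16 rose with GM-CSF alone (median 0.25). Citrate synthase (Cs) was at 282 and 285, then 364 and 356, then 230 and 222 CPM (-0.33 ± 0.04). Atp5b lay between the other groups, and Cs fell below both.

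Genes of cholesterol synthesis had the lowest median of the same 28 lists. Of 24 cholesterol synthesis genes 21 fell and 0 rose with both agents (median -1.76), where 22 fell with GM-CSF alone (median -1.19). With unscaled totals 2 rose. All 14 fallers stood, beside 53% of all fallers. Of the 14, 10 were lower than with GM-CSF alone, beside 13.2% of all fallers. The synthase Hmgcs1 was at 210 and 181 CPM without GM-CSF, 54.6 and 54.0 with it and 40.6 and 39.5 with both agents (-2.29 ± 0.07), and the demethylase Cyp51 at 160 and 141, then 40.2 and 44.0, then 24.3 and 22.9 CPM (-2.68 ± 0.08). Both fell in 2 steps with no overlap.

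Of 20 genes of fatty acid synthesis and desaturation 12 fell and 5 rose (median -0.44), the 5 being 3 in the DESeq2 Wald test. Scd2, a desaturase, was at 327 and 308 CPM without GM-CSF, 268 and 337 with it and 51.5 and 50.8 with both agents (-2.64 ± 0.10). The first 2 groups overlapped, and the libraries with DON stood alone at the bottom. Nr1h3, the sterol-sensing receptor LXR alpha, was at 105 and 107, then 33.1 and 27.8, then 30.6 and 26 CPM (-1.91 ± 0.09), low in both treated groups. In the 34 genes that burn fatty acids or store lipid, 16 fell and 6 rose (median -0.18), the 6 being 10 with unscaled totals and 3 without GM-CSF with DON replicate 1. Lipoprotein lipase (Lpl) fell (-1.08 ± 0.04), and the sterol exporter Abcg1 rose (0.92 ± 0.04).

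Oxidant defence and iron genes were mostly lower than without GM-CSF. Of 31 genes of NRF2, glutathione and thioredoxin 24 fell and 4 rose (median -0.42, and -0.67 with GM-CSF alone), and of 5 fallers 1 stood. Nfe2l2, which encodes NRF2, was at 758 and 757 CPM without GM-CSF, 431 and 430 with it and 354 and 371 with both agents (-1.06 ± 0.04). Of 13 iron genes 12 fell and 0 rose (median -0.56), and of 3 fallers 1 stood, with the transferrin receptor Tfrc at 52.4 and 49.9, then 31.5 and 25.9, then 14.1 and 13.4 CPM (-1.89 ± 0.09). Both genes fell in 2 steps, but their lists did not. The iron list had a median of -0.74 with GM-CSF alone. Against GM-CSF alone, 5 of the 13 iron genes were higher with both agents and 5 lower (median 0.36). In the NRF2 list 11 of 31 were higher and 9 lower (median -0.003). Of all genes 28.8% were higher and 28.8% lower in that comparison.

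Most lysosome genes were higher with both agents than with GM-CSF alone, 33 of 42, and 3 were lower. In that comparison 28.8% of all genes were higher and 28.8% lower. Of 42 tested, 35 fell and 2 rose with GM-CSF alone (median -0.36), while with both agents 15 rose (35.7%) and 13 fell (31%) against no GM-CSF, near the 27.2% and 28.4% of all genes (median 0.02). The lysosomal calcium channel Mcoln1 was at 117 and 118 CPM without GM-CSF, 83.0 and 84.0 with it and 195 and 192 with both agents (0.72 ± 0.04). Gpnmb, a lysosomal stress protein gene, was at 10909 and 11226, then 3326 and 3473, then 6657 and 6699 CPM (-0.73 ± 0.03). Mcoln1 was above both other groups, and Gpnmb lay between them. Of 33 genes linked to FOXO and quiescence 16 rose (48.5%, beside 27.2% of all genes) and 13 fell (39.4%, beside 28.4%), with a median of 0.29. With GM-CSF alone 7 rose and 19 fell (median -0.36). The antiproliferative gene Btg1 was at 265 and 254, then 346 and 358, then 647 and 648 CPM (1.32 ± 0.04), and the arrestin-like glucose sensor Txnip at 249 and 242, then 134 and 139, then 59.5 and 56.2 CPM (-2.08 ± 0.05). Btg1 rose and Txnip fell in 2 steps.

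Of 24 p53 targets 10 rose (41.7%, beside 27.2% of all genes) and 8 fell (33.3%, beside 28.4%), with a median of 0.12. Among those that rose was the cell cycle inhibitor Cdkn1a (1.84 ± 0.07). It was at 31.0 and 31.8 CPM without GM-CSF, 92.7 and 105 with it and 111 and 115 with both agents. Phlda3 was among those that fell, at 126 and 126, then 40.0 and 35.7, then 47.4 and 47.2 CPM (-1.41 ± 0.06). Of 29 glycolysis and HIF genes 5 rose and 13 fell (median -0.26), the 5 being 8 with unscaled totals. The lactate exporter Slc16a3 was at 61.2 and 63.1, then 63.8 and 74.5, then 21.9 and 23.2 CPM (-1.46 ± 0.08), below both other groups.

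States unlike either other group were counted as genes called in the same direction, and at least 2-fold, against both. There were 212 such genes above both (1.72% of genes tested) and 186 below both (1.51%), and the 2 comparisons share the libraries with GM-CSF and DON. Many were low: of the 212, 48 were under 1 CPM in the mean of every group, and 64 reached a mean of 10 CPM with both agents. Of the 186 below both, 27 were under 1 CPM in every group. With GM-CSF alone 142 of the 212 and 96 of the 186 were not called. It had already lowered 69 of the 186, and had raised 42 of the 212, and these moved further the same way with both agents. It had lowered 28 of the 212 and raised 21 of the 186, which lay past the cytokine-free level with both agents. The listed genes, 757 of the 12340 tested, held 16 of the 212 and 27 of the 186. Their share was a little above that of all genes tested among the 212, and further above it among the 186. The lists were chosen with earlier results of these data known, so these shares are descriptions.

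Besides Ddit3, Trib3, Chac1 and Spag11b, genes above both included Bbc3 (PUMA), a trigger of mitochondrial cell death. Bbc3 was at 6.64 and 6.03 CPM without GM-CSF, 6.16 and 6.55 with it and 27.3 and 28.4 with both agents (2.14 ± 0.09). Fbxo32, a ubiquitin ligase of muscle wasting and a FOXO target, was at 22.2 and 23.4, then 15.8 and 22.5, then 86.4 and 92.3 CPM (1.97 ± 0.12). In both genes the cytokine-free and GM-CSF libraries overlapped, and both DON libraries stood several-fold above them. Sesn2, a stress-induced inhibitor of the growth kinase mTORC1, was at 23.7 and 26.7, then 34.3 and 39.0, then 119 and 117 CPM (2.22 ± 0.07). The secreted glycoprotein gene Fstl1 (2.14 ± 0.12), the chromatin reader Mllt3 (2.39 ± 0.10) and the GTPase Gbp8 (1.90 ± 0.11) were the others the selection rule took. Gadd45a, a growth arrest gene, was at 15.5 and 16.4, then 4.46 and 5.27, then 31.8 and 35.7 CPM (1.09 ± 0.09), turned from lowest to highest.

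Genes below both included Mgea5, the enzyme that removes O-linked N-acetylglucosamine from proteins, an amino sugar made with glutamine nitrogen. Mgea5 was at 69.2 and 66.1 CPM without GM-CSF, 69.8 and 73.0 with it and 19.3 and 23.7 with both agents (-1.65 ± 0.08). Tuba1c, an alpha tubulin, was at 199 and 205, then 198 and 192, then 49.4 and 47.3 CPM (-2.06 ± 0.05). In both genes no change was called with GM-CSF alone, and the DON libraries were far below the rest. Kctd12 was at 161 and 151, then 82.7 and 80.2, then 22.6 and 26.6 CPM (-2.66 ± 0.07), falling in 2 steps like Tnf, Ccnd1, Ccl22 and Cxcl14. Midn was at 67.6 and 70.9, then 89.9 and 90.2, then 22.8 and 23.2 CPM (-1.59 ± 0.05), and the immune checkpoint gene Cd276 at 28.3 and 30.0, then 25.2 and 23.9, then 8.15 and 7.10 CPM (-1.94 ± 0.09). Midn went from highest with GM-CSF to lowest with both agents.

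**Figure D5:**
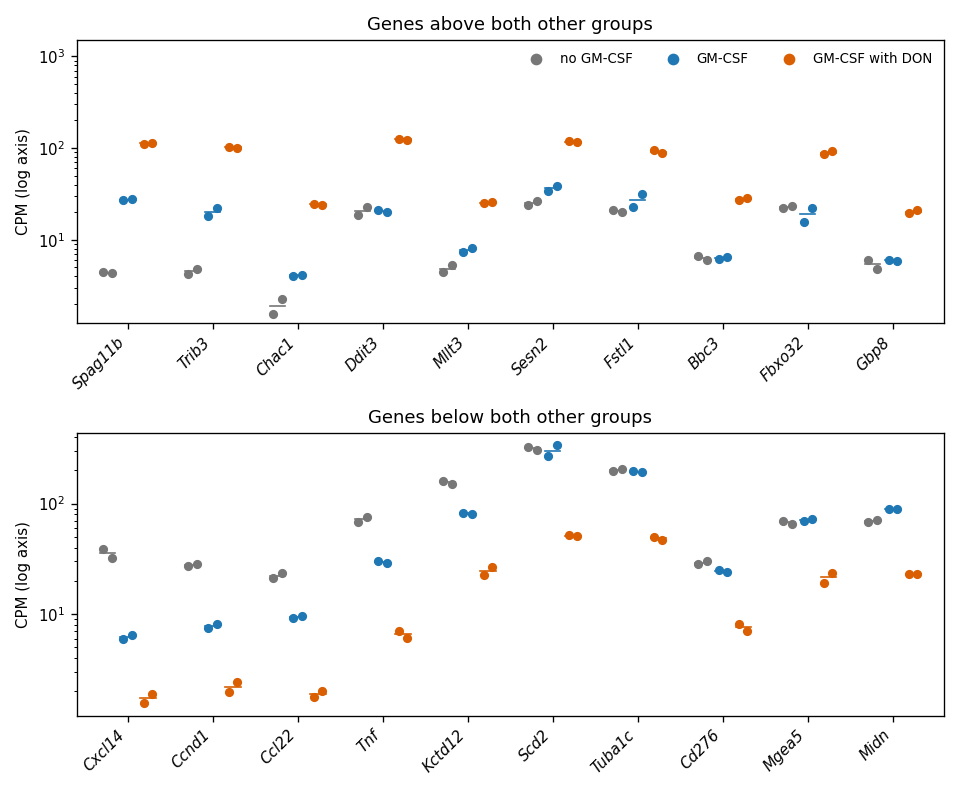
Level in each library, in CPM on a log axis, of the 10 genes above both other groups (top) and the 10 below both (bottom) that the selection rule took; points are libraries and short lines the mean of the 2 libraries of a group. The rule took only genes with both DON libraries clear of the other 4, so that separation is not a result. For Ddit3, Bbc3, Scd2 and Tuba1c the other 4 lie together.

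Among markers of other cells, the dendritic list had 3 of 6 genes higher and 0 lower than without GM-CSF. Clec9a, a receptor of dendritic cells, was at 4.34 and 4.52 CPM without GM-CSF, 8.54 and 8.46 with it and 16.4 and 14.6 with both agents (1.80 ± 0.10). Zbtb46, a transcription factor of the same lineage, was at 0.892 and 0.862, then 8.04 and 8.46, then 2.83 and 4.42 CPM (2.06 ± 0.25). The 2 genes did not move together: Clec9a was highest with both agents and Zbtb46 with GM-CSF alone. In the granulocyte and mast cell list, 3 of 4 markers fell and 1 rose, the chemokine receptor Cxcr2 being at 59.8 and 60.3, then 2.61 and 2.59, then 8.81 and 7.99 CPM (-2.84 ± 0.07) and the collagenase Mmp8 rising by 1.52 ± 0.06. In the lung epithelium list 7 of 10 fell and 1 rose, the 7 being 4 with unscaled totals, 4 without no GM-CSF replicate 2 and 3 without either GM-CSF with DON replicate. E-cadherin (Cdh1) was at 16.2 and 11.5, then 95.4 and 101, then 25.1 and 26.1 CPM (0.89 ± 0.12). Of 3 lymphocyte markers 1 fell and 0 rose, and of 4 stroma and endothelium markers 2 rose and 0 fell, with Vwf at 205 and 175, then 92.8 and 103, then 252 and 272 CPM (0.46 ± 0.08). The part of these genes in the results above was not tested.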

How the data were processed

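Libraries of cultured mouse alveolar macrophages (RNA extracted with an RNeasy kit and sequenced on an Illumina HiSeq, per the labels' protocols) were grouped by their treatment labels. The authors deposited whole-number counts per gene symbol for 16840 genes, and the submitters' processing notes name the build mm10 and, as tools, DESeq2 1.28.1, Subread 1.4.6, STAR 2.6.0a and featureCounts without their roles. The sources used here give neither the annotation nor the strand setting, nor if the counts are rounded estimates. The deposited table of normalized values was not used.

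The filter on low counts was filterByExpr with a minimum of 10, and libraries were scaled with TMM. A single quasi-likelihood fit over all 6 libraries, 1 coefficient for each group, was made in edgeR 4.0.16 (R 4.3.3, limma 3.58.1), with 3 residual degrees of freedom, and comparisons were two-sided contrasts with Benjamini-Hochberg adjustment over the 12340 genes tested. The procedure was tested on simulated data. No columns were identical, and replicates differed beyond counting noise (chi-square per degree of freedom between 4.67 and 8.90). For a group without counts the floor was 3 counts in each library, covering counting error only.

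A total of 34 gene lists held 938 entries, of which 887 were in the table and 757 distinct genes were tested. Genes at 0 in 1 main group left every list median as it was at 2 decimals when set at their bound. The members and lists were chosen with earlier results of these data known. Named genes were the 12 largest rises and falls (mean of at least 10 CPM, no overlap, no predicted model) and 6 per direction of each fate. They also held 10 above and 10 below both groups, without overlap with either, and up to 4 per list by adjusted p. A fixed set including Ccl17, Car4, Ear6, Nov, Asns and Irg1 was added. Of 207 such genes 206 matched GENCODE on GRCm38. Outside that rule, Irf4, Id1, Cx3cr1, Ccl4, Nfkbib, Nos2, Pycr1, Aldh1l2, Slc7a3, Atf4, Cad and Gfpt1 were named after their values were seen. Promoters came from RefSeq. Spi1 was not analysed here. DESeq2 1.42.0, other scalings and filters, a fit of the compared libraries only, a replicate block, other fold thresholds and leaving out each library were alternatives. Tables and figures were made in Python 3.11.15 with matplotlib 3.10.9.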

Additional observations from a re-analysis of the deposited data

How the results depend on the processing

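The 6859 genes changed between GM-CSF with DON and no GM-CSF were 5797 by the DESeq2 Wald test, 7153 with unscaled totals, 6584 with only the compared libraries fitted and between 5723 and 6570 when any 1 library was left out. With the replicate number as a replicate block 6542 genes changed. The labels give only a shared number, and the differences between replicates correlated at -0.311 (no GM-CSF and GM-CSF with DON), -0.0476 (no GM-CSF and GM-CSF) and 0.0676 (GM-CSF and GM-CSF with DON) over 8164 genes. A block with the DON numbers crossed, added after seeing the data, gave 6805. The counts of genes that stood, were no longer called or lay outside both groups were within 1.5 times of the reported value under every scaling, filter, test, block and left-out library. They did move with the fold threshold, since it defines the classes. With no fold threshold 1602 risers and 2005 fallers stood, 1254 and 1103 were not called, and 1879 and 1852 genes were above and below both. At 4-fold these were 134 and 129, 32 and 35, and 40 and 28. Across the named genes and alternatives, 2663 values kept their side of the threshold, 10 lost the call, 18 gained one and 0 reversed. The genes that lost it were Adam8, Nek2, Gfpt2, Foxj1 and Scgb1a1. With 2 libraries a group, genes of under about 1 CPM are the least certain.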
